A study of Mus musculus with 12 samples.

Results

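The genes examined here are 53 genes that flank the sarcomeric myosin heavy chain cluster on mouse chromosome 11, around the locus of the mini-muscle trait. They are a named list of genes from both sides of the cluster, without the sarcomeric myosin heavy chain genes, out of 162 genes that RefSeq (GRCm38.p6) places between the outermost of them. The rule uses gene name and position and no measured value, and every probe set annotated to exactly 1 of the names was taken. Of the 53 genes, 48 had at least 1 probe set annotated to that gene alone, giving 81 probe sets out of 34945 single-gene probe sets for 18193 genes on the array. The other 5, Tmem220, Tnfsf13, Trp53, Glp2r and Ccdc42, were not analysed here.

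The 12 arrays measured gastrocnemius, the main calf muscle, of 12 male mice from generation 37 of a breeding experiment in which both lines used had been selected for high voluntary wheel running. The mice were on average 84 days old, with a range of 79 to 86 days. The mini-muscle group was 6 mice of line 3, with the muscles of the left and right limb pooled for each animal, and the regular-muscle group was 6 mice of line 8, with the muscle of 1 limb. Each group is therefore 1 line, and phenotype, line, every allele fixed in a line and the limb pooling cannot be told apart. In tissue RNA, fewer cells of a type and less transcript per cell cannot be told apart either.

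As background, mini-muscle is a recessive trait of these wheel-running lines in which hindlimb muscles are much smaller and have few type IIb fibres. It was mapped to the myosin region of chromosome 11, and a base change in an intron of Myh4, the gene of the type IIb myosin heavy chain, has been reported for it. Genes close to such an allele tend to be inherited with it. The cluster also produces long noncoding RNAs. 2310065F04Rik, known as linc-Myh, is a transcript of fast muscle fibres that has been placed under an enhancer shared with the fast myosin genes, and Myhas is transcribed from the opposite strand between Myh1 and Myh4.

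The start regions of these noncoding RNAs and of Myh4 are printed because linc-Myh was lower together with Myh4 while the probe set of Myhas, a gene whose start lies next to that of Myh4, was not. That probe set shares its source sequence with a probe set named Myh1, so the transcripts it reads cannot be told apart. The windows are the 250 bases before each RefSeq start (build GRCm38.p6), written 5′ to 3′ on the strand of the gene. They lie at chr11:67120081-67120330, minus strand (2310065F04Rik), at chr11:67237282-67237531, minus strand (Myhas) and at chr11:67237562-67237811, plus strand (Myh4). Capitals mark matches to 3 motifs of muscle promoters, the E-box CANNTG, which myogenic factors bind, MCAT, whose letters are CATTCC and which TEAD factors bind, and the usual MEF2 consensus. Both strands were searched, and the MCAT match of 2310065F04Rik is on the opposite strand. The MEF3 motif, TCAGGTT, was searched as well and had 0 matches in these windows.
2310065F04Rik: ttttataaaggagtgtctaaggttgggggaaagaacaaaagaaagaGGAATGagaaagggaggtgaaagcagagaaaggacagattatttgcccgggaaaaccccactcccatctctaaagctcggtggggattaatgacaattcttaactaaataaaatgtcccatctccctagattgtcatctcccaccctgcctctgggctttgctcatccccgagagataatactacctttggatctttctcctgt
Myhas: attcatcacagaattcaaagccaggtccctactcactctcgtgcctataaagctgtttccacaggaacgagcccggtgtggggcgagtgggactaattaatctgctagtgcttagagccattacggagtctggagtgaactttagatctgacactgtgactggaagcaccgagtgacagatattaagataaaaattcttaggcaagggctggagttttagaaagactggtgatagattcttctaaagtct
Myh4: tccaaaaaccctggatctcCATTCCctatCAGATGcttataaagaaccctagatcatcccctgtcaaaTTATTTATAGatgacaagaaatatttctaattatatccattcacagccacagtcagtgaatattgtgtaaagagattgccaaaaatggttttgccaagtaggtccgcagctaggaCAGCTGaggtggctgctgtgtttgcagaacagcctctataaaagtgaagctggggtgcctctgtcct
The Myh4 window held 2 E-boxes, 1 MCAT match and 1 MEF2 match, which a narrower form of the MEF2 motif, with C first and G last, does not take in. The MEF2 motif was widened from that narrower form after these windows had been seen, so this match is not independent of the choice of motif. The 2310065F04Rik window held 1 MCAT match and 0 E-boxes, and the Myhas window 0 matches. Over 32851 RefSeq promoter windows of the same length, 66.2% held an E-box, 12.6% MCAT, 3.49% MEF3, 2.92% the MEF2 consensus and 0.508% its narrower form. The starts of Myhas and Myh4 point away from each other and are 531 bases apart. These matches are letters in a window and show no binding. The windows are reference sequence and not the sequence of the mice used, so they show no allele of either line.

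Levels are given as log2 array intensity. A difference is the mini-muscle mean less the regular-muscle mean on that scale, with the standard error (SE) of a limma fit, n = 6 arrays per group. A gene is represented by its brightest probe set, and a probe set with a mean below log2 8.56, the median over all genes, is called dim. A gene was called changed at an adjusted p under 0.05 (limma, Benjamini-Hochberg over all 34945 single-gene probe sets). Of the 48 measured locus genes, 31 were above the dim limit and 17 were dim.

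Most of the genes around the locus were not called changed. Of the 31 genes above the dim limit, 4 (12.9%) were called, with 2310065F04Rik and Map2k4 lower and Myh10 and Senp3 higher in mini-muscle. Over all 9097 genes above the limit 20.6% were called, 11.4% higher and 9.15% lower, so the share of called genes at the locus did not exceed the background. At an unadjusted p under 0.05 the count was 6 of 31 (19.4%), beside 36.6% of all genes. The 6 mini-muscle arrays lay entirely apart from the 6 regular-muscle arrays for 2 of the 31 genes, 2310065F04Rik and Senp3, whereas 13.0% of all genes were separated in this way.

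**Figure D1:**
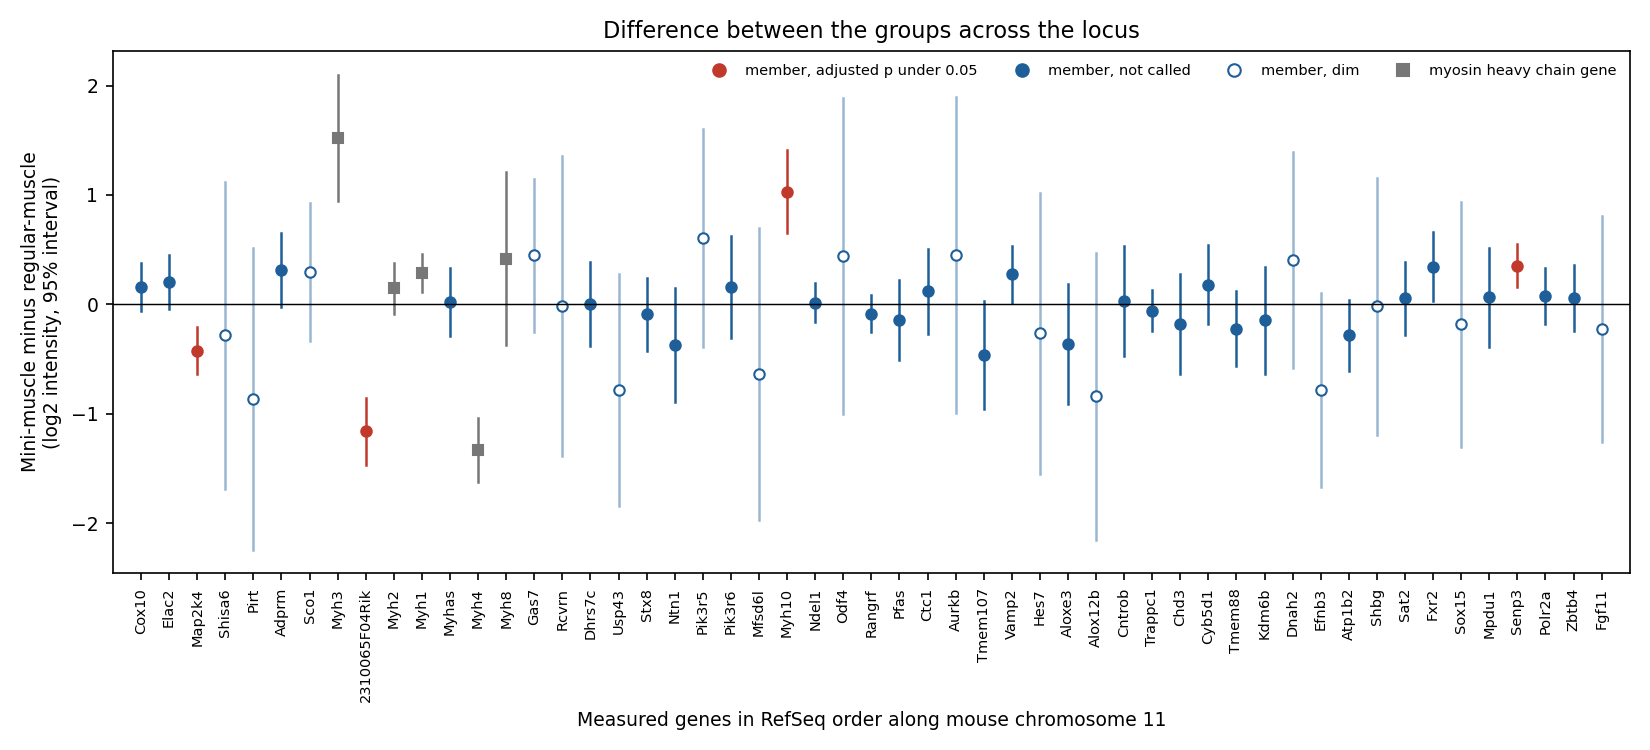
Difference between the groups (log2 intensity, with its 95% interval) at the brightest probe set of each measured gene, in RefSeq order along chromosome 11. Red circles are locus genes with an adjusted p under 0.05, blue circles those without, open circles dim genes, and grey squares the myosin heavy chain genes. Apart from 2310065F04Rik at -1.16 and Myh10 at 1.03, the filled circles lie between -0.46 and 0.35.

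The median difference of the 31 genes was 0.02, beside 0.03 over all genes, and the median size of the difference regardless of sign was 0.16 beside 0.22. The precision was similar, with a median SE of 0.16 for the locus genes and 0.14 for all genes. For 18 of the 27 genes that were not called, the 95% interval of the difference lay within 1.5-fold (0.58 on the log2 scale) in either direction. For the other 9 (Adprm, Ntn1, Pik3r6, Tmem107, Aloxe3, Chd3, Kdm6b, Atp1b2 and Fxr2) the interval reached beyond that size. At least 1.5-fold differences were measured for 2 locus genes (6.45%), beside 12.1% of all genes.

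**Figure D2:**
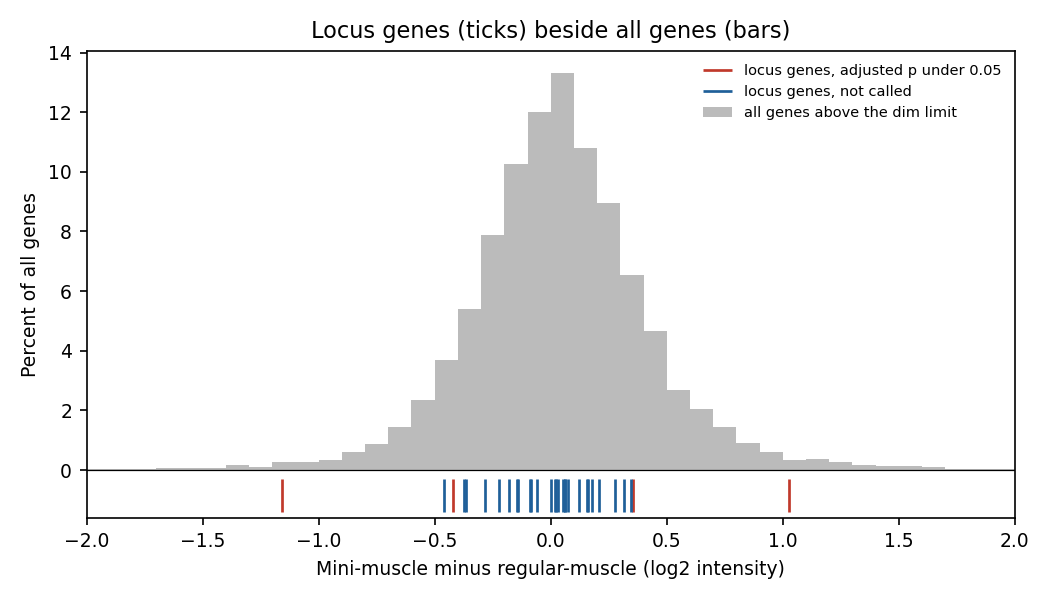
Grey bars give the percent of all 9097 genes above the dim limit in each 0.1-wide bin of the difference (log2 intensity; genes beyond 2 in either direction are not drawn), and ticks below the axis mark the 31 locus genes. The blue ticks of the uncalled genes fall between -0.46 and 0.34, around the centre of the bars.

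Of the 2 noncoding RNAs of the myosin locus, linc-Myh was lower in mini-muscle and Myhas was not called. The level of 2310065F04Rik had a lowest, median and highest value of 10.27, 10.58 and 10.79 on the mini-muscle arrays and of 11.26, 11.81 and 12.09 on the regular-muscle arrays. The groups did not overlap, and among the regular-muscle arrays replicates 3 and 4 were the lowest, at 11.33 and 11.26. The transcript was 2.23-fold lower (log2 -1.16, SE 0.15, limma adjusted p = 2.5e-05), from 11.70 ± 0.34 (SD) in regular muscle to 10.54 ± 0.24. It is read by 1 probe set. Myh4 itself had a mean of 17.37 ± 0.14 (SD) on regular-muscle arrays against 16.04 ± 0.38 on mini-muscle arrays. Its difference was -1.33 (SE 0.14), and -3.12 at its second probe set.

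Myhas was measured at 13.16, 13.89 and 14.48 (lowest, median and highest) in mini-muscle and at 13.67, 13.85 and 14.01 in regular muscle. The mini-muscle arrays thus spread to both sides of the regular-muscle arrays, with replicate 4 the lowest and replicate 3 the highest. The difference was 0.02 (SE 0.15, 95% interval -0.29 to 0.34). The probe set that carries the name Myhas is annotated to the same source sequence as a probe set named Myh1, and RefSeq lets the 2 genes overlap at their ends, so the transcripts it reads cannot be told apart. The Myh1 probe set of that source differed by 0.29 (SE 0.08), another of Myh1 by 0.0011 and its dim probe set by 2.90.

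**Figure D3:**
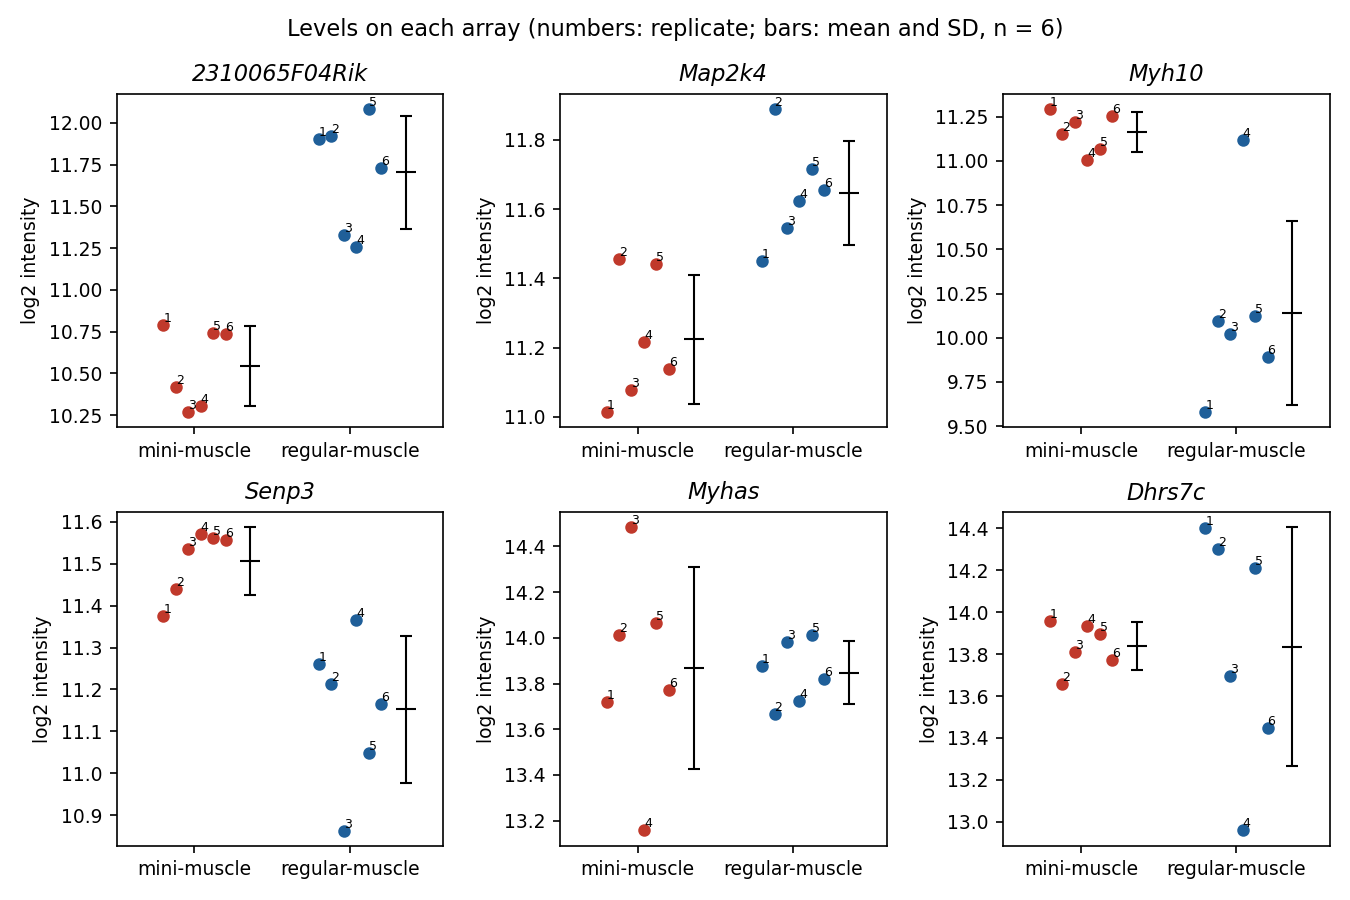
Log2 intensity on each array for 6 locus genes, with replicate numbers beside the points and the mean and SD (n = 6) as bars. 2310065F04Rik and Senp3 separate the groups, Map2k4 overlaps by a single pair of arrays, regular-muscle replicate 4 lies among the mini-muscle arrays for Myh10, and Myhas and Dhrs7c overlap throughout.

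Among genes of the cytoskeleton, the nonmuscle myosin heavy chain Myh10 was higher in mini-muscle and the others were not called. Myh10 encodes the heavy chain of nonmuscle myosin IIB, which drives contraction of the cell cortex in many cell types. Its level was 11.004, 11.19 and 11.30 (lowest, median and highest) on mini-muscle arrays and 9.58, 10.06 and 11.12 on regular-muscle arrays. The groups overlap because of regular-muscle replicate 4 at 11.12, while the other 5 regular-muscle arrays lay between 9.58 and 10.12. The gene was 2.04-fold higher (log2 1.03, SE 0.18, limma adjusted p = 8.2e-04), and the difference was 1.23 without regular-muscle replicate 4. Its second probe set was dim and differed by 0.59 (SE 0.79), and the mean of both no longer passed (adjusted p = 0.33).

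Markers of nonmuscle cells are given beside Myh10 because such cells also contain it. Of the endothelial markers 0 of 4 above the dim limit were called. Summed intensities here take in every measured marker of a list, dim ones included. For endothelium the sum was 4030 to 5423 in mini-muscle and 3014 to 5288 in regular muscle. Of the smooth muscle and pericyte markers 0 of 5 were called (sums of 33641 to 40952 and 30887 to 39092), and of the Schwann cell and nerve markers 0 of 3 (7144 to 19786 and 7375 to 19720). Of the fibroblast markers 3 of 5 were lower (Col1a1, Col3a1 and Dcn) and sums of 21330 to 35358 against 34464 to 55909. No marker was at 0, and the part of these cells in the Myh10 difference was not tested.

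Ndel1, a partner of dynein in nuclear movement, had levels of 12.59, 12.96 and 13.09 in mini-muscle and 12.81, 12.90 and 13.04 in regular muscle. Its difference of 0.02 had an interval of -0.16 to 0.20, although it is the next gene to Myh10. Cntrob, a centrosome protein, differed by 0.03 (SE 0.24). The remaining cytoskeletal genes were dim: Gas7, the axonemal dynein Dnah2, the mitotic kinase Aurkb and the sperm tail gene Odf4.

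In kinase and lipid signalling, Map2k4 was lower in mini-muscle. Map2k4 encodes MKK4, which activates the stress kinases JNK and p38. Its level was 11.01, 11.18 and 11.46 (lowest, median and highest) in mini-muscle and 11.45, 11.64 and 11.89 in regular muscle. The groups met only at mini-muscle replicate 2 and regular-muscle replicate 1. The difference was -0.42 (SE 0.10, 1.34-fold lower, limma adjusted p = 0.011). A second probe set above the dim limit differed by -0.11 (SE 0.12, adjusted p = 0.69), the mean of the probe sets did not pass (adjusted p = 0.087), and the call was also lost with arrays centred on their medians (adjusted p = 0.064) and without the intensity trend (adjusted p = 0.084).

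The other 3 signalling genes above the limit were not called. They were Pik3r6 (0.16, SE 0.22), a regulatory subunit of phosphoinositide 3-kinase gamma, the guidance factor Ntn1 (-0.37, SE 0.25), and Tmem88, an inhibitor of Wnt signalling (-0.22, SE 0.16). Dim members of the group were Pik3r5, the other regulatory subunit of that kinase, Fgf11, Efnb3, Pirt, Rcvrn and Shisa6, with SEs of 0.42 to 0.67.

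Senp3, a protease that removes SUMO from nucleolar proteins, was slightly higher in mini-muscle. Its level was 11.38, 11.55 and 11.57 (lowest, median and highest) in mini-muscle and 10.86, 11.19 and 11.36 in regular muscle. The groups did not overlap, but the highest regular-muscle array, replicate 4, lay just under the lowest mini-muscle array, replicate 1. The difference was 0.35 (SE 0.09, 1.28-fold, limma adjusted p = 0.020). The call was lost without regular-muscle replicate 3 (0.30, adjusted p = 0.0504), with arrays centred on their medians (adjusted p = 0.062) and without the intensity trend (adjusted p = 0.11). The deubiquitinase Usp43 was dim.

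Genes of mitochondrial assembly at the locus were not called. Cox10, which makes haem O for cytochrome c oxidase, had levels of 10.88, 11.30 and 11.40 in mini-muscle and 10.89, 11.06 and 11.17 in regular muscle, a difference of 0.16 (SE 0.10, adjusted p = 0.45). Its second probe set above the limit gave 0.08. Elac2, the RNase Z that trims transfer RNAs, differed by 0.21 (SE 0.12) at its brightest probe set, and by 0.49 (SE 0.15, adjusted p = 0.053) and 0.61 (SE 0.19, adjusted p = 0.059) at 2 others. None of the 3 probe sets of Elac2 passed alone, while their mean did (0.44, limma adjusted p = 0.025). The call of this gene therefore depends on whether its probe sets are averaged. Sco1, a copper chaperone of cytochrome c oxidase, was dim (0.29, SE 0.30).

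Of the genes of the muscle cell membrane and calcium handling, none of the 3 was called. Dhrs7c, a dehydrogenase of the sarcoplasmic reticulum, had levels of 13.66, 13.85 and 13.96 in mini-muscle and 12.96, 13.95 and 14.40 in regular muscle. The difference of the means was 0.0013 (95% interval -0.38 to 0.39), and -0.17 without regular-muscle replicate 4, called in neither case, while the SD was 0.11 in mini-muscle and 0.57 in regular muscle, where replicates 4 and 6 were the lowest. Atp1b2, a beta subunit of the sodium pump, had levels of 11.71, 12.39 and 12.81 against 12.27, 12.59 and 12.87. Its difference was -0.28 (SE 0.15, adjusted p = 0.35), and -0.01 at its second probe set. Rangrf, which helps to bring the cardiac sodium channel to the membrane, differed by -0.09 (SE 0.08).

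In membrane traffic, 0 of the 5 genes above the limit was called. Vamp2, a vesicle SNARE, differed by 0.28 (SE 0.12, adjusted p = 0.22) and by 0.24 at its second probe set, with overlapping groups in both. Stx8, an endosomal SNARE, differed by -0.09 (SE 0.16), and Trappc1, of the TRAPP tethering complex, by -0.06 (SE 0.09). Tmem107, a protein of the ciliary transition zone, had the lowest difference among the uncalled genes (-0.46, SE 0.23, adjusted p = 0.30), with regular-muscle arrays from 8.61 to 10.13 around mini-muscle arrays from 8.79 to 9.41. Mpdu1, needed for glycan synthesis, differed by 0.06 (SE 0.22), and Mfsd6l was dim.

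The transcription and chromatin genes were also uncalled at their brightest probe sets. Fxr2, an RNA-binding relative of the fragile X protein, had the highest difference among the uncalled genes (0.34, SE 0.15, adjusted p = 0.20). Polr2a, the largest subunit of RNA polymerase II, differed by 0.07 (SE 0.12), Zbtb4 by 0.06, the telomere protein Ctc1 by 0.12 and the remodeller Chd3 by -0.18. Kdm6b, a histone H3 lysine demethylase, differed by -0.15 (SE 0.23) at its brightest probe set, where mini-muscle replicate 3 was at 8.56 and the other mini-muscle arrays at 9.88 to 10.36. A dim probe set of Kdm6b gave -1.29 (SE 0.43, adjusted p = 0.070). Hes7 and Sox15 were dim.

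Of the metabolic genes, Pfas, of purine synthesis, differed by -0.14, Sat2, a relative of spermidine acetyltransferase, by 0.05, Cyb5d1 by 0.18 and Adprm, a manganese-dependent phosphatase of ADP-ribose, by 0.31 (SE 0.16, adjusted p = 0.30). The epidermal lipoxygenase Aloxe3 differed by -0.36 (SE 0.26). Its partner Alox12b and Shbg, sex hormone-binding globulin, were dim. The group as a whole had a median of 0.05 over its 5 genes above the limit.

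Over all 81 probe sets of the locus, 40 were above the dim limit and 41 were dim. The 4 called probe sets were the brightest ones named above, beside 19.5% of all probe sets above the limit and 8.92% of all single-gene probe sets. None of the 41 dim probe sets was called. The differences of the dim probe sets ran from -1.29 to 1.56, and for the 17 genes with no brighter probe set the SE was 0.30 to 0.69, against 0.08 to 0.26 for the 31 genes above the limit. A difference of the size seen for Map2k4 was therefore not detectable in the dim genes.

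Of the genes with at least 2 probe sets above the dim limit, 8 were locus genes. The sign differed between probe sets for 1 of them, Zbtb4 (0.06 and -0.16), which is 12.5%, beside 37.4% of the 3435 such genes on the array. The median range between the probe sets of a gene was 0.15 at the locus and 0.26 over all. The Map2k4 probe sets, with 1 called and 1 not, were the only pair at the locus that divided in this way. On the array, 899 of the 3435 genes divided so, out of 1190 with any called probe set.

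**Figure D4:**
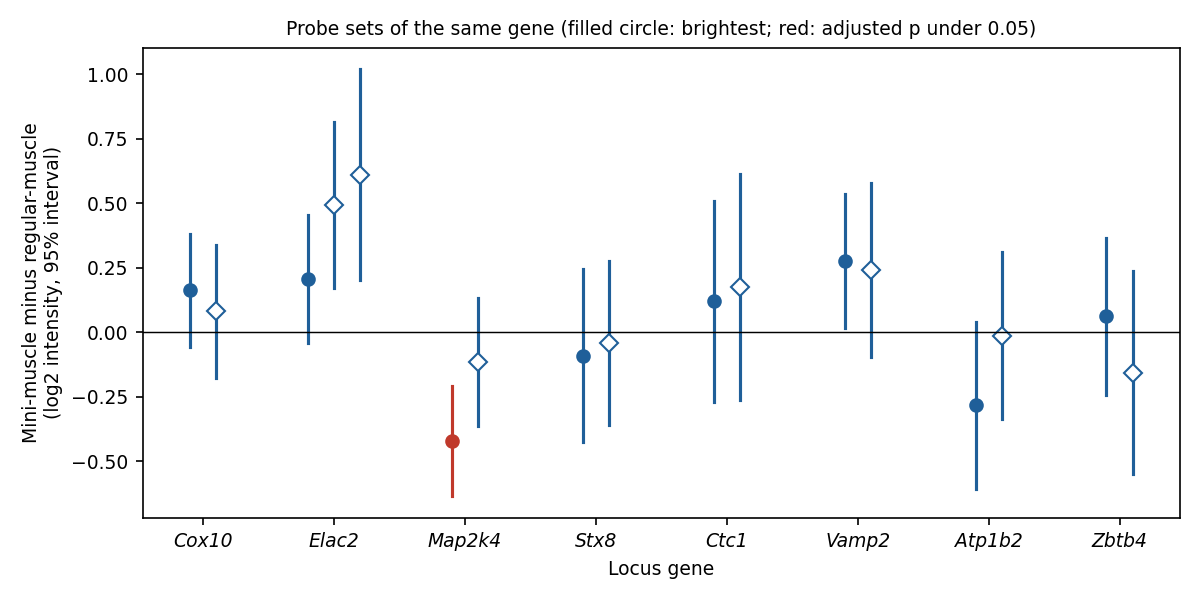
Difference between the groups (log2 intensity, with its 95% interval) for each probe set above the dim limit of the 8 locus genes that have at least 2. Filled circles are the brightest probe set of a gene, open diamonds its others, and red marks an adjusted p under 0.05. The intervals of the probe sets of a gene overlap for all 8 genes, and Map2k4 alone has a called probe set.

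By position, 10 of the 53 genes lie before Myh4 in the RefSeq order and 43 after it. Before Myh4, 2 of 6 genes above the limit were called (Map2k4 and 2310065F04Rik, median difference of all 6 0.09), and after it 2 of 25 (Myh10 and Senp3, median 0.02). Over all genes above the limit 20.6% were called. The 2 sides were not tested against each other, and 6 genes are too few to compare shares. The nearest measured genes above the limit on either side of Myh10, Pik3r6 (0.16) and Ndel1 (0.02), were not called, nor were those beside Senp3, Eif4a1 (0.06) and Polr2a (0.07). The nearest such gene before Map2k4, Arhgap44, rose by 0.75 (limma adjusted p = 0.012), with 9 other RefSeq genes between them. Adprm, on the other side with 16 genes between, was not called. Beside 2310065F04Rik, the embryonic myosin Myh3 rose by 1.52 (limma adjusted p = 0.0010) and Myh2, the type IIa myosin, differed by 0.15 and was not called.

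Of 27 other measured genes that lie between the outermost locus genes, 8 were above the limit. Among these Arhgap44 and Chrnb1, the beta subunit of the acetylcholine receptor (0.84, limma adjusted p = 1.7e-04), rose, and 0 fell. The other 6 differed by -0.08 to 0.17. Over the whole of chromosome 11, 175 of 780 genes above the limit were called (22.4%).

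Genes known to work with the locus genes were counted from lists written from textbook knowledge, with earlier results of these data known. For Map2k4, 2 of 14 measured genes of the stress kinase pathway above the limit rose (Dusp1 by 0.82 and Gadd45a by 0.87) and 2 fell (Map2k6, a kinase that activates p38, by 0.52, and Atf2 by 0.36), with a median of 0.07. For Cox10 and Sco1, 2 of 16 genes of complex IV assembly rose (Cox19 by 0.50 and Coa3 by 0.34) and 1 fell (Coa7 by 0.42), with a median of -0.03. For Stx8, Vamp2 and Trappc1, 3 of 13 partners rose and 4 fell (median -0.15), among them Vti1b, an endosomal SNARE, which rose by 0.27, and Trappc6b, which fell by 0.60. Of 10 subunits of RNA polymerase II beside Polr2a, Polr2i fell by 0.34 and 0 rose. Of 15 regulators and targets of the p53 protein, 4 rose, led by Cdkn1a (1.55) and Eda2r (1.23), and 2 fell, Tigar (-0.80) and Ccng1 (-0.26). Gadd45a is in both that list and the stress kinase list, and Sco2, which was not called, is in both the p53 and the complex IV lists. The p53 gene itself, Trp53, is a locus gene that was not analysed here. Over all lists 20 of 66 different genes above the limit were called (30.3%), beside 20.6% of all genes. With arrays centred on their medians 9 of the 66 were called, beside 12.8% of all genes. Without the intensity trend 8 of the 66 were called, beside 10.6% of all genes. In both settings the share of the lists lay closer to that of all genes than in the main fit.

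The muscle identity of the samples was visible in the markers Ckm, Acta1 and Ttn, whose means lay between 16.93 and 17.38 in both groups, and red blood cell markers were dim. Of 6 muscle fibre markers, Des rose by 0.85 and Pvalb fell by 0.41. Macrophage markers were lower for 2 of 4, the tendon marker Tnmd by 1.33, and neither adipocyte nor skin markers above the limit (1 each) were called. Arrays correlated on average at 0.960 to 0.970 with their own group and at 0.929 to 0.942 with the other. Median array intensities were 211.9 to 275.2. Of 3 array measures compared with a two-sided exact permutation test, the 3′ to 5′ ratio of the Gapdh control probe sets differed slightly (log2 -0.19 to -0.09 in mini-muscle and -0.24 to -0.15 in regular muscle, p = 0.013, adjusted p = 0.039), and those of Actb (p = 0.24, adjusted p = 0.35) and the array median (p = 0.89, adjusted p = 0.89) did not pass. The part of this ratio in the differences above was not tested.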

How the data were processed

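Probe set intensities of 12 arrays were used as the authors deposited them, on a linear scale; per the submitters' processing notes they were made with MAS5, which summarises each probe set on each array separately, with settings that the labels do not state. The trimmed mean of every deposited array, leaving out 2% at each end, was 800.0, so the arrays share 1 scaling but not 1 distribution. Arrays have no sequencing depth, and their number limits the precision.

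Probe sets were named by the platform annotation: of 45101, 34945 had 1 gene, 932 several, 9160 none, and 64 were controls. By gene identifier, 34741 were found in the RefSeq table (GRCm38.p6), which gave gene order. Intensities were taken to log2 with no offset. Groups were compared over all 34945 with limma 3.58.1 (R 4.3.3; lmFit, eBayes with intensity trend, two-sided, Benjamini-Hochberg); the fit was tested on simulated data. Each array holds a different animal, and replicate numbers only name arrays.

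Every locus gene is named. Full values are given for those called at their brightest probe set above the dim limit, and the rest by difference or range. Myh4 is named as the gene the locus is linked to. The genes and lists were chosen with earlier results of these data known. The nearest-neighbour values were added after the data were seen, and the MEF2 consensus was widened after the printed windows were seen. Alternatives were quantile normalization, median centring, an offset of 64, other choices of probe set and dim limit, no trend, and leaving out each array.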

Additional observations from a re-analysis of the deposited data

Results flagged for a closer look

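For Myh10, regular-muscle replicate 4 stood far from its group, at log2 11.12 against 9.58 to 10.12 on the other 5 arrays, and within the mini-muscle range of 11.004 to 11.30. For Kdm6b, mini-muscle replicate 3 stood far from its group, at 8.56 against 9.88 to 10.36, and the difference of this gene was -0.15 with that array and 0.11 without it, called in neither case. The gap to the nearest array was 0.65 and 0.73 of the whole range, above Dixon's 95% critical value. In all, 62 groups of arrays (31 genes in 2 groups) were examined and 2 stood out in this way. Chance alone gives about 1 in 20, so the number that stood out was not above it.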

How the results depend on the processing

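2310065F04Rik kept its direction and call under each alternative run, and Myh10 in each but the mean of all probe sets. Of the called results, 0 reversed; differences near 0 of uncalled genes, among them Cntrob, Dhrs7c, Myhas and Ndel1, changed sign under some alternatives without being called. With arrays centred on their medians, 1 gene was called higher, 1 lower and 2 probe sets in all, and 12.8% of all genes were called; the partner lists then held 9 called genes in place of 20. Without the intensity trend, the counts were again 1 higher, 1 lower and 2 probe sets, with 8 partner genes and 1 of the other genes of the interval (2 with the trend). Of all genes, 10.6% were then called. With the mean of all probe sets, 1 gene was called lower, and 13.5% of all genes were called. The cause of these changes was not tested. Leaving out each array in turn gave 1 to 2 genes higher (1 without regular-muscle replicate 3), 2 genes lower in each case, 3 to 6 called probe sets (3 without regular-muscle replicate 3 and 6 without regular-muscle replicate 4), and 1 to 3 genes whose probe sets differed in sign (2 without mini-muscle replicate 6, and 3 without mini-muscle replicate 3 or regular-muscle replicate 1). That last count was 10 with no dim limit, which adds the dim probe sets. The median of the locus genes moved by less than the spread between arrays under each alternative, with its sign negative with no dim limit (-0.0084) and for some left-out arrays (-0.011 to 0.054). Fitting only the brightest probe sets above the limit called 26.7% of all genes and again 4 locus genes. No paired analysis was possible because the labels give the groups no shared replicate numbers. Depth does not apply to arrays, and the signal of the 17 dim genes limits what can be seen in them.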
